A study of Mus musculus with 6 samples.

Results

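TRP channels are cation channels that open in response to chemicals, osmotic stress, calcium, lipids or the filling state of calcium stores, and the mucolipins are their branch in endosomes and lysosomes. The 9 genes described here are Trpa1, the mucolipin genes Mcoln1, Mcoln2 and Mcoln3, Trpv4, Trpc1, Trpm4, Trpm7 and Pkd2, out of 39179 genes counted. Trpa1 was chosen by its counts in these same libraries, high in the cochlea and low in the vestibule, so its levels are given as a description with no test. The other 8 were listed by symbol as members of the same family, with earlier results of these data known. RNA was sequenced from the sensory epithelium of the cochlea, the hearing organ, and of the vestibule, the balance organ, with 3 libraries of each. All 6 libraries came from wild-type C57Bl/6J mice of both sexes at P0, the day of birth, and the 2 groups differ in tissue only. Each RNA pool combined many dissected organs, 20 inner ears of 10 mice in the series' design, and whether the 3 libraries of a tissue came from separate pools is not given in the sources used here, so that p-values measure only the spread between these libraries, which may be technical.

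The sensory epithelium holds hair cells, which turn motion into an electrical signal, and the supporting cells around them. Several TRP channels were once candidates for the transduction channel of hair cells, and Trpa1 was among them. Mcoln3 has a longer tie to the inner ear, since a mutation that makes its channel overactive causes deafness, circling and a mottled coat in the varitint-waddler mouse.

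The libraries held 24464483 to 33664793 counts on genes, so that 1 CPM (a count per 1000000 counts on genes) stood for 24.5 to 33.7 counts. All 8 hair cell markers checked (Myo7a, Pou4f3, Myo6, Otof, Gfi1, Atoh1, Espn and Lhx3) had counts in every library, and their summed level ran from 559 to 772 CPM in the cochlea and from 1023 to 1301 CPM in the vestibule. A list of 8 supporting cell markers of the cochlea summed to between 11329 and 13746 CPM there and to between 1656 and 1688 CPM in the vestibule. Markers of other cells were present too: the sums for melanocytes, macrophages, endothelium, Schwann cells (502 to 659 against 1089 to 1469 CPM), mesenchyme (4766 to 5512 against 7491 to 8715 CPM) and dark cells and stria (615 to 775 against 981 to 1118 CPM) were higher in all 3 vestibular libraries, and the sum for skeletal muscle was 231 CPM in cochlea 3 against 2.90 to 21.9 CPM in the other libraries. Differences were tested with edgeR's quasi-likelihood test over the 14723 genes that reached 1 CPM in at least 3 libraries, with Benjamini-Hochberg adjusted p-values and a threshold of 0.05. Log2 fold changes are vestibule minus cochlea, and those below 0 are higher in the cochlea. Not every marker followed its sum. Of the 7 mesenchyme markers, 3 were called toward the vestibule and Lum toward the cochlea (857 against 163 CPM). Of the 5 Schwann cell markers, 3 were called toward the vestibule and none toward the cochlea. The same held for 3 of the 4 dark cell and stria markers, and Slc12a2, the largest part of that sum, was not called (522 against 549 CPM).

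Trpc1 was higher in the cochlea, and Mcoln3, Trpv4 and Pkd2 were higher in the vestibule. Mcoln1, Trpm4 and Trpm7 did not pass the test. Thus 4 of the 7 tested genes were called, 3 of them toward the vestibule, where 27.4% of all tested genes were called, 15.8% toward the vestibule and 11.6% toward the cochlea. The median log2 fold change of the 7 genes was 0.40, against 0.00 over all tested genes. The 4 called genes were also those of the 7 whose 3 libraries of 1 tissue lay above all 3 of the other, Trpc1 on the cochlear side and the other 3 on the vestibular side, against 41.8% of all tested genes in either direction, 14.3% on the cochlear side and 27.5% on the vestibular side. Trpa1, chosen for its pattern, and Mcoln2, too scarce for the test, are left out of these counts. Because these are whole epithelia, fewer cells of a type and less RNA per cell cannot be told apart in any of these differences.

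**Figure D1:**
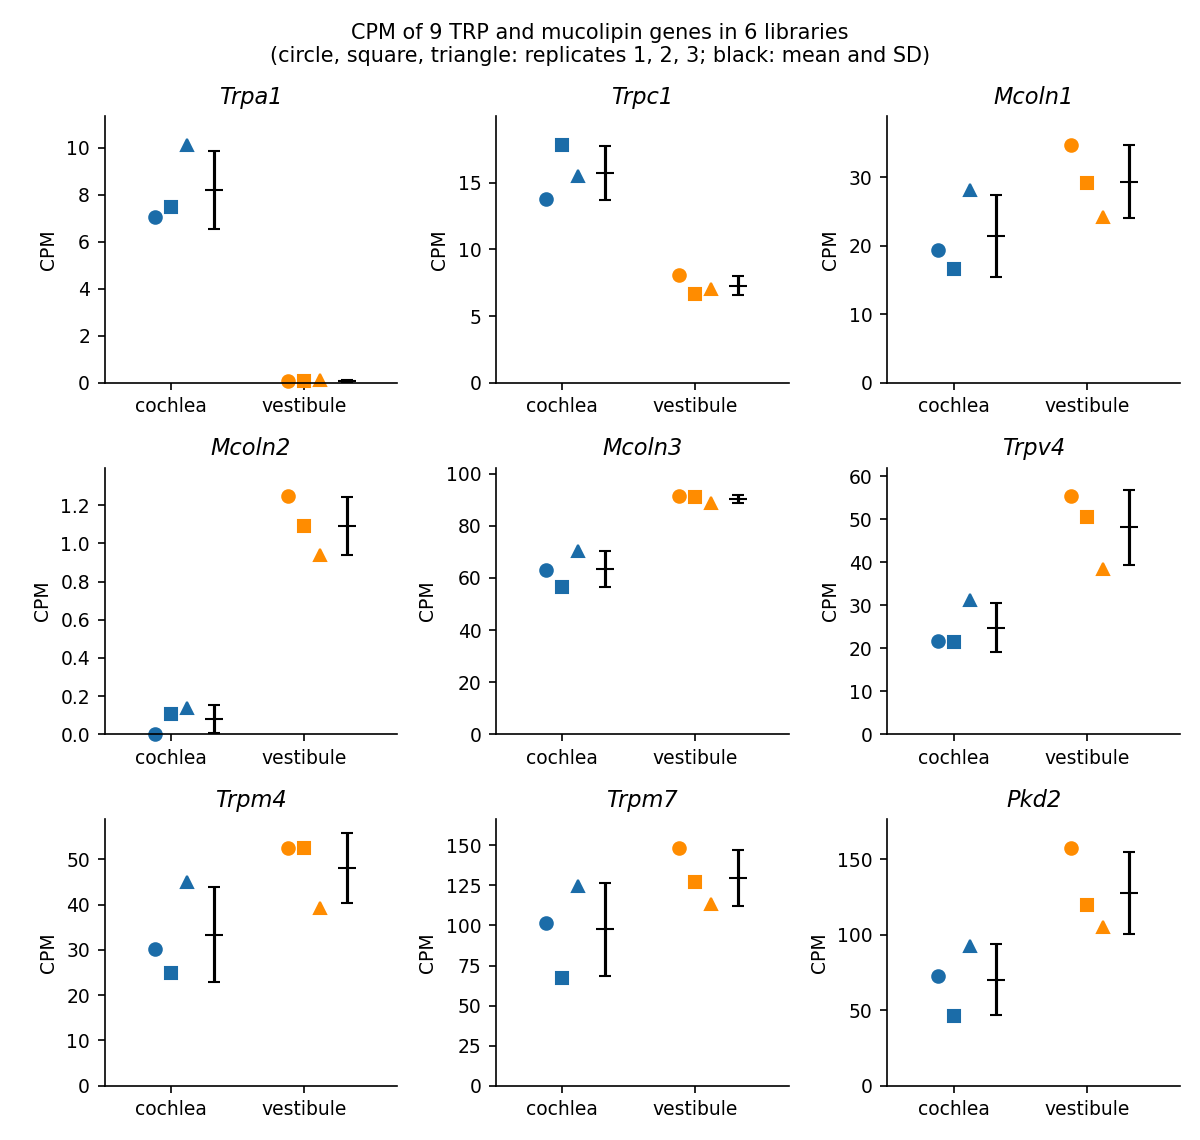
CPM of the 9 genes in the 3 cochlear (blue) and 3 vestibular (orange) libraries, with 1 symbol per replicate number and the mean with its SD in black, each panel on its own axis from 0. The tissues do not overlap for Trpa1, Trpc1, Mcoln2, Mcoln3, Trpv4 and Pkd2, and overlap for Mcoln1, Trpm4 and Trpm7.

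Trpa1 (ENSMUSG00000032769, chr1:14872648-14918862 on the minus strand of GRCm38), the receptor for pungent irritants such as mustard oil in pain-sensing neurons, was nearly confined to the cochlear libraries. It had 173, 215 and 296 counts in cochlea 1, 2 and 3, or 7.07, 7.46 and 10.1 CPM. In vestibule 1, 2 and 3 it had 2, 2 and 3 counts, or 0.0594, 0.0779 and 0.118 CPM. The lowest cochlear library was thus 60.05-fold above the highest vestibular one. The mean was 8.22 ± 1.66 CPM in the cochlea and 0.0850 ± 0.0298 CPM in the vestibule (SD, n = 3 each). Pooled over the libraries, 684 cochlear counts stood against 7 vestibular ones, a 100.5-fold ratio of rates, which describes the values by which the gene was chosen. The vestibular counts sit close to the lower end of what these depths can measure, since a pooled count of 7 has an exact Poisson interval of 2.81 to 14.4. Of 6 neuron markers 3 were called toward the cochlea (Tubb3, Syn1 and Prph) and none toward the vestibule. The sum of the 6 overlapped between the tissues. It stood at 410, 379 and 138 CPM in cochlea 1, 2 and 3 and at 289, 105 and 119 CPM in vestibule 1, 2 and 3. Of the 8 supporting cell markers of the cochlea, 6 were called toward the cochlea and S100a1 toward the vestibule (107 against 296 CPM, log2 fold change 1.35, edgeR adjusted p = 0.00216), and Otoa was not called. Tecta alone, at a mean of 8489 CPM in the cochlea, made up most of that sum. The part of either cell type in the level of Trpa1 was not tested.

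The 5 genes whose log2 CPM profile over the 6 libraries lay closest to that of Trpa1, after each gene was centred on its own mean, were Prss3, Epyc, Crabp1, Calb1 and Tmprss4. Likeness was the root mean square difference between centred profiles over 14722 genes. For Prss3, a trypsin gene with near-identical copies in the genome whose counts are therefore uncertain, this was 0.267 log2 units, with 37, 56 and 67 counts in the cochlea and none in the vestibule. Its vestibular values, and so its distance, depend on the prior count of 0.5 added before taking logs. Epyc, a proteoglycan and one of the supporting cell markers listed, lay at 0.486 and stood at a mean of 1489 CPM in the cochlea against 19.8 CPM in the vestibule. Crabp1, which binds retinoic acid, lay at 0.503, the calcium buffer Calb1 at 0.537, and the membrane-anchored protease Tmprss4 at 0.674. Being chosen for likeness, they carry no evidence of their own on the tissues. Pearson's r of the 5 with Trpa1 over the same 6 libraries ran from 0.978 to 0.999, and 83 genes had an r over 0.99.

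**Figure D2:**
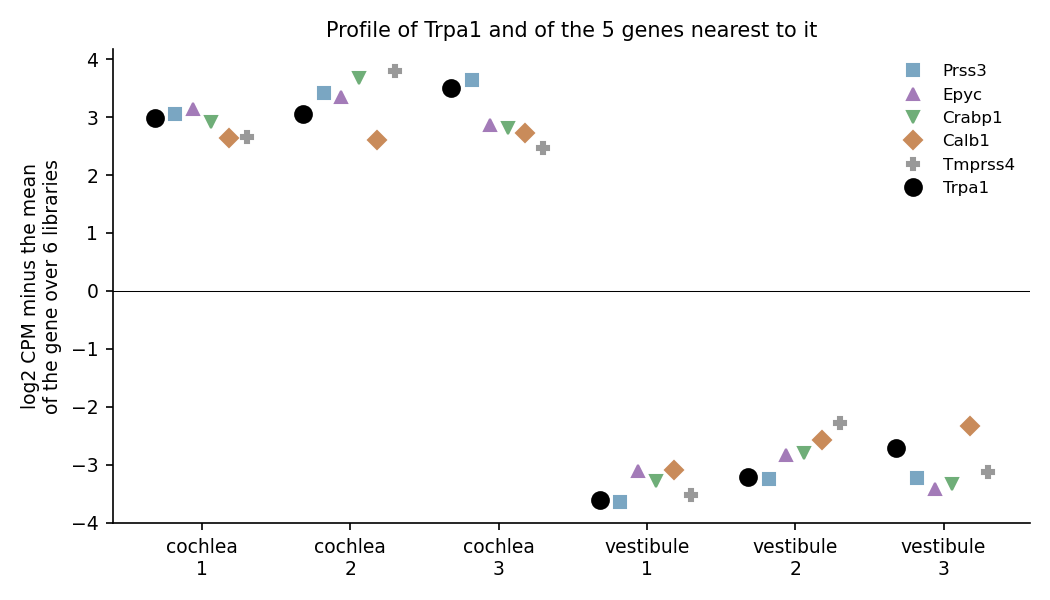
Log2 CPM of Trpa1 (black circles) and of the 5 genes nearest to it, each minus its own mean over the 6 libraries (y axis), for each library (x axis), with points of a library set side by side. All 6 genes lie above their mean in the 3 cochlear libraries and below it in the 3 vestibular ones.

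Trpc1 (ENSMUSG00000032839, chr9:95705082-95750375, minus strand), a canonical TRP subunit that joins other TRP subunits in channels opened downstream of receptors and of calcium store release, was the tested member that was higher in the cochlea. It stood at 13.8, 17.8 and 15.5 CPM in the 3 cochlear libraries and at 8.08, 6.70 and 7.07 CPM in the 3 vestibular ones. Every cochlear library was above every vestibular library. The means were 15.7 ± 2.02 and 7.28 ± 0.716 CPM (SD, n = 3 each), and the log2 fold change was -1.24 (SE 0.18, edgeR adjusted p = 0.00112). The call held under all 13 other settings tried, with log2 fold changes between -1.34 and -1.11.

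The 3 mucolipin genes differed from each other in level and in how they were split between the tissues. Mcoln3 and Mcoln2 lie next to each other on the plus strand of chromosome 3, at chr3:146117450-146141806 and chr3:146149833-146195513, with 8026 bases between them, and Mcoln1 is on chromosome 8 at chr8:3500457-3515232, also on the plus strand. No exon of these genes, or of the other 6, overlaps an exon of another gene in GENCODE vM21. Mucolipin genes are textbook targets of TFEB, a transcription factor that switches on lysosomal genes by binding an E-box with the core CACGTG, so the 250 bases upstream of the RefSeq start of each mucolipin gene are printed here, 5′ to 3′ on the plus strand of GRCm38.p6, with every CACGTG in capitals.
Mcoln1, chr8:3500269-3500518: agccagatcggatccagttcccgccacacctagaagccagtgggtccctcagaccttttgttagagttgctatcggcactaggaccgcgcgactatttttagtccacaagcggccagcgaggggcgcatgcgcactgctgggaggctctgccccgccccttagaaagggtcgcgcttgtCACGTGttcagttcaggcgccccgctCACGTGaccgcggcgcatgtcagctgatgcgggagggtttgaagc
Mcoln2, chr3:146149924-146150173: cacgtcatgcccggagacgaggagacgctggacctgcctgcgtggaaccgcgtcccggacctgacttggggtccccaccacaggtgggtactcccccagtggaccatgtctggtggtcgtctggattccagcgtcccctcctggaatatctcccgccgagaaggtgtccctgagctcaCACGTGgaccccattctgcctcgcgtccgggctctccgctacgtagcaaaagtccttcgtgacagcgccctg
Mcoln3, chr3:146121541-146121790: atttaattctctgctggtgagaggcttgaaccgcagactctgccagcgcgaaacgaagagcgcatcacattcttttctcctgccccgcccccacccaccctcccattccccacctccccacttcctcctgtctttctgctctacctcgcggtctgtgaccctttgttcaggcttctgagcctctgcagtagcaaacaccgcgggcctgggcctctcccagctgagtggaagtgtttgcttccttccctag
Mcoln1 held 2 copies, whose first bases were 71 and 45 bases upstream of the start, Mcoln2 held 1, at 72 bases, and Mcoln3 held none in this window. All 3 starts lie inside the GENCODE gene. RefSeq gave a promoter for 7 of the 9 genes, and among the others the motif was found in Trpm7, 25 bases upstream of its start, and not in Trpv4, Trpc1 or Pkd2. The motif is its own reverse complement, so 1 search covers both strands, and 6.02% of 32851 promoters of the same length held it. A match is a description of the sequence only.

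Mcoln3 (ENSMUSG00000036853) was the most abundant mucolipin per gene length in both tissues and was higher in the vestibule. It stood at 63.0, 56.7 and 70.4 CPM in cochlea 1, 2 and 3, and at 91.3, 90.9 and 88.7 CPM in vestibule 1, 2 and 3. The vestibular libraries lay within a narrow range, all above the cochlear ones. The means were 63.3 ± 6.84 and 90.3 ± 1.44 CPM (SD, n = 3 each), and the log2 fold change was 0.40 (SE 0.12, edgeR adjusted p = 0.0374). The call was lost without cochlea 1 (adjusted p = 0.109), cochlea 2 (0.12), vestibule 1 (0.0605), vestibule 2 (0.129) or vestibule 3 (0.0738), and with no filter beyond 1 count in any library (0.0871), with the fold change between 0.34 and 0.51 over all settings.

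Mcoln1 (ENSMUSG00000004567), the lysosomal channel whose loss causes mucolipidosis type IV, did not pass the test. It stood at 19.5, 16.6 and 28.1 CPM in the cochlea and at 34.7, 29.2 and 24.2 CPM in the vestibule, so the highest cochlear library lay above the lowest vestibular one. The log2 fold change was 0.34 (SE 0.20, edgeR adjusted p = 0.248). Without cochlea 3, its highest cochlear library, the value was 0.56 with an adjusted p of 0.0377.

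Mcoln2 (ENSMUSG00000011008), an endolysosomal channel best known from immune cells, was the scarcest mucolipin per gene length and had its counts mostly in the vestibule. It had 0, 3 and 4 counts in the cochlear libraries and 42, 28 and 24 counts in the vestibular ones, or at most 0.137 CPM against 1.25, 1.09 and 0.942 CPM. All vestibular libraries were above all cochlear ones. It reached 1 CPM in 2 libraries only and was left out of the test. Pooled, 94 vestibular counts stood against 7 cochlear ones, a 13.1-fold ratio of rates with an exact conditional 95% interval of 6.10 to 33.4 for counting error. No p-value is given for it, since under a looser filter it would enter the test only through its vestibular counts. The 7 macrophage markers checked were all called toward the vestibule, with summed levels of 75.2 to 88.1 CPM in the cochlea and 303 to 343 CPM in the vestibule, and their part in the difference in Mcoln2 was not tested.

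Trpv4 (ENSMUSG00000014158, chr5:114622152-114658421, minus strand), a channel opened by cell swelling and warmth, had the largest log2 fold change toward the vestibule of the 7 tested genes. It stood at 21.8, 21.4 and 31.3 CPM in cochlea 1, 2 and 3 and at 55.4, 50.7 and 38.4 CPM in vestibule 1, 2 and 3. The tissues did not overlap, although cochlea 3 and vestibule 3 came close. The means were 24.8 ± 5.63 and 48.2 ± 8.74 CPM (SD, n = 3 each), and the log2 fold change was 0.83 (SE 0.18, edgeR adjusted p = 0.00871). All 13 other settings kept the call, with adjusted p-values up to 0.048. Endothelial cells are a known site of this channel, and the 4 endothelial markers checked were all called toward the vestibule, with summed levels of 56.1 to 87.9 CPM in the cochlea and 330 to 472 CPM in the vestibule. Their part in the difference was not tested.

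Pkd2 (ENSMUSG00000034462, chr5:104459450-104505819, plus strand) encodes polycystin-2, which works with polycystin-1 in primary cilia and is mutated in polycystic kidney disease. It stood at 72.5, 46.0 and 92.4 CPM in the cochlea and at 157.7, 120.0 and 105.4 CPM in the vestibule. The libraries spread widely within each tissue and still did not overlap between them. The means were 70.3 ± 23.3 and 127.7 ± 27.0 CPM (SD, n = 3 each), and the log2 fold change was 0.74 (SE 0.23, edgeR adjusted p = 0.0420). The call was lost without cochlea 1 (adjusted p = 0.101), cochlea 2 (0.108), vestibule 1 (0.124) or vestibule 2 (0.0843). Of 5 genes of the polycystin-1 and fibrocystin group, 2 could be tested and none was called, against 27.4% of all tested genes, too few to read a share from, and none of them at an unadjusted p under 0.05 either. Pkd1, the gene of polycystin-1, had a log2 fold change of 0.47 (edgeR adjusted p = 0.292), with 49.6, 49.2 and 103.9 CPM in the cochlea and 136.1, 97.4 and 72.5 CPM in the vestibule. Cochlea 3 thus stood above 2 of the vestibular libraries for Pkd1, where for Pkd2 it stayed below all 3. Without cochlea 3 the value for Pkd1 was 0.89 with an adjusted p of 0.0172.

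Trpm4 and Trpm7 did not pass the test. Trpm4 (ENSMUSG00000038260, chr7:45302632-45333780, minus strand), which opens on a rise in cell calcium and passes monovalent cations, stood at 30.1, 24.9 and 45.0 CPM in the cochlea and 52.5, 52.6 and 39.2 CPM in the vestibule, a log2 fold change of 0.41 (SE 0.21, edgeR adjusted p = 0.178). Trpm7 (ENSMUSG00000027365, chr2:126791565-126876230, minus strand), a magnesium-permeable channel fused to a kinase, stood at 101, 67.1 and 125 CPM in the cochlea and 149, 127 and 113 CPM in the vestibule, with 0.29 (SE 0.20, edgeR adjusted p = 0.313). In both genes cochlea 3 lay above vestibule 3 and below the other vestibular libraries. Without cochlea 3 Trpm4 was called (0.66, adjusted p = 0.0158), and Trpm7 was called under none of the 13 other settings, with values between 0.10 and 0.49.

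**Figure D3:**
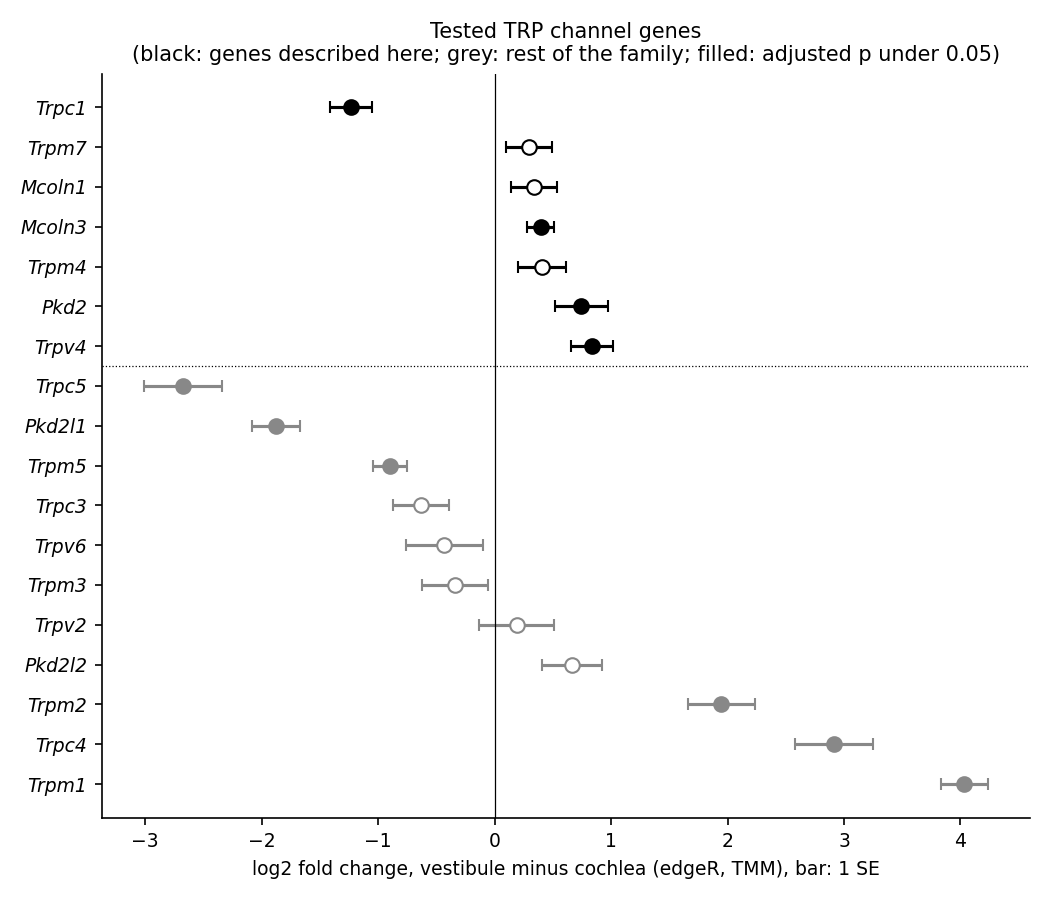
Log2 fold change, vestibule minus cochlea, with 1 SE (x axis) for the 7 tested members (black, above the dotted line) and 11 tested genes of the rest of the family (grey), filled where the edgeR adjusted p was under 0.05, with Trpc5 and Trpc4 in the test only through the tissue where they were high. Among the members Trpc1 at -1.24 lies on the cochlear side, and Trpv4 at 0.83, Pkd2 at 0.74 and Mcoln3 at 0.40 are filled on the vestibular side.

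Cochlea 3 was the highest cochlear library for 8 of the 9 genes, the exception being Trpc1, and vestibule 3 was the lowest vestibular library for 7 of the 9. Over all tested genes cochlea 3 was the highest of its tissue in 41.9% and vestibule 3 the lowest of its tissue in 50.8%. Without cochlea 3 the number of members called toward the vestibule was 5 (Mcoln1, Mcoln3, Trpv4, Trpm4 and Pkd2) in place of 3, without vestibule 3 it was 2 (Trpv4 and Pkd2), and without any of cochlea 1, cochlea 2, vestibule 1 or vestibule 2 it was 1 (Trpv4). The number of all genes called toward the vestibule moved the same way, from 2325 to 2694 without cochlea 3, to 1938 without vestibule 3 and to between 1342 and 1804 without any of the other 4.

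Levels can be compared between genes only per length, for which the deposited log2 RPKM (CPM per kilobase of gene) were used. Mcoln3 was the most abundant of the 9 per length in both tissues, at a mean of 4.19 ± 0.16 log2 RPKM in the cochlea and 4.71 ± 0.02 in the vestibule (SD, n = 3 each), and its lowest library was above the highest library of every other member. In the cochlea Trpm7 (3.07), Trpm4 (2.93), Pkd2 (2.73), Mcoln1 (2.68), Trpv4 (2.59) and Trpc1 (2.38) followed, and the ranges of neighbours in this order overlapped. Trpa1 came below them at 0.93 log2 RPKM, with no overlap with Trpc1. In the vestibule Pkd2 (3.63), Trpv4 (3.55), Trpm7 (3.51), Trpm4 (3.49) and Mcoln1 (3.16) likewise overlapped with their neighbours, and Trpc1 stood clear below them at 1.27. Trpa1 was the lowest vestibular gene at -5.55 log2 RPKM, below Mcoln2 at -1.60. Mcoln2, for which counts per exon length in GENCODE vM21 were used because the matrix does not list it, was the lowest gene in the cochlea, at -4.78 in the 2 libraries with a count. Trpa1 and Mcoln2 changed places at the low end of the order, while Mcoln3 stayed first. For Trpa1 this restates the pattern by which it was chosen, and the cochlear value of Mcoln2 rests on 3 and 4 counts. The exon lengths of Mcoln1, Trpc1 and Trpm4 in GENCODE vM21 (7555, 8030 and 10826 bases) are longer than the lengths behind the deposited values (about 3253, 3008 and 4236 bases), and with the longer ones Trpm4 and Mcoln1 fall below Trpv4 in the cochlea and the range of Trpc1 there (0.78 to 1.15) overlaps that of Trpa1 (0.73 to 1.25). The order in the vestibule stays the same, and Mcoln3 stays first in both tissues.

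**Figure D4:**
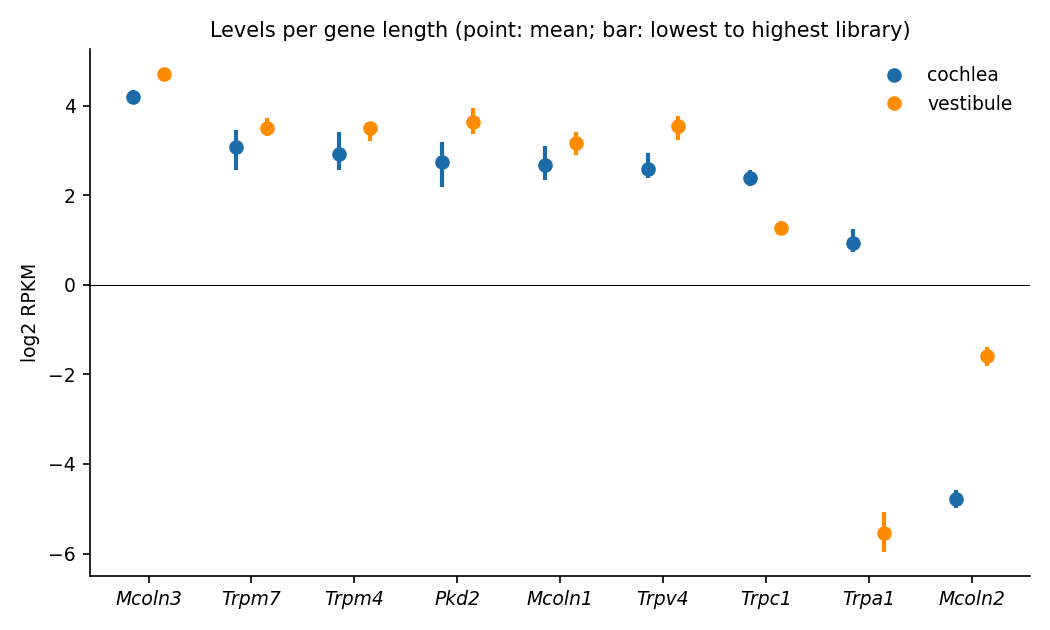
Log2 RPKM of the 9 genes (y axis) in the cochlea (blue) and the vestibule (orange), as the mean (point) and the span from the lowest to the highest library (bar), in the order of the cochlear means. Mcoln3 is highest in both tissues, Trpa1 falls from 0.93 in the cochlea to -5.55 in the vestibule, and Mcoln2 lies at -4.78 and -1.60.

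Because Mcoln3 is known from hair cells and the summed hair cell markers were higher in the vestibule, each gene was also set against that sum. Mcoln3 amounted to 11.3%, 8.53% and 9.11% of the marker sum in cochlea 1, 2 and 3 and to 7.02%, 8.40% and 8.66% in vestibule 1, 2 and 3. The tissues overlapped on this scale, unlike in CPM. Trpc1 did not overlap, with 2.47%, 2.68% and 2.01% in the cochlear libraries and 0.621%, 0.619% and 0.690% in the vestibular libraries. Of the 8 markers 5 were called toward the vestibule and none toward the cochlea, and the sum leaned on a pair of them that went different ways, Myo6 (399 CPM in the cochlea against 340 CPM in the vestibule, not called) and Otof (83.6 against 390 CPM, called). Leaving out any of the other 6 markers changed the overlap of none of the 9 genes. Trpc1 stayed higher in the cochlea whichever marker was left out, at 2.30% to 3.17% against 0.892% to 1.05% without Otof and 4.94% to 6.95% against 0.858% to 1.01% without Myo6. Mcoln3 still overlapped without Otof but was higher in all cochlear libraries without Myo6 (19.8% to 31.7% against 9.70% to 12.7%). Trpv4, which overlapped with all 8 markers, was higher in all vestibular libraries without Otof (3.79% to 4.63% against 5.36% to 7.18%) and in all cochlear ones without Myo6 (7.47% to 11.0% against 5.51% to 6.77%). Pkd2 overlapped with all 8 and without Myo6, and was higher in the vestibule without Otof (8.17% to 14.3% against 14.7% to 20.5%). Mcoln1, Trpm4 and Trpm7, which overlapped with all 8 markers and without Otof, were likewise higher in all cochlear libraries without Myo6, for example Mcoln1 at 5.81% to 9.79% against 3.47% to 3.90%. For these 6 genes the share of hair cell markers therefore depends on which markers are summed, and no direction is given for it.

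**Figure D5:**
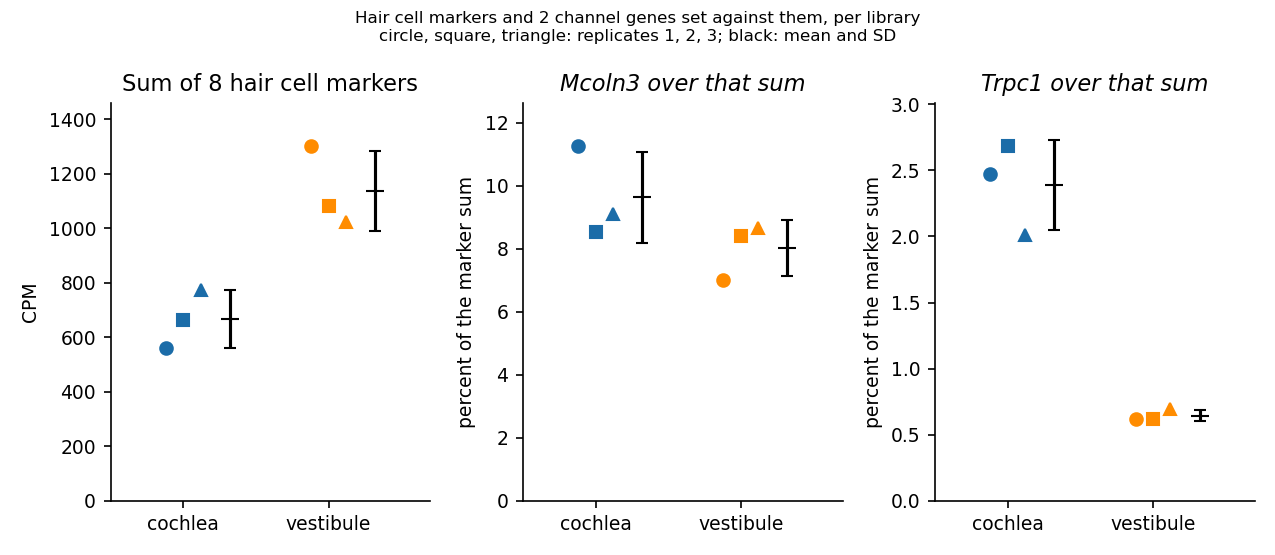
Summed CPM of 8 hair cell markers (left), and Mcoln3 (middle) and Trpc1 (right) as a percentage of that sum, in the 3 cochlear (blue) and 3 vestibular (orange) libraries with the mean and SD in black. The marker sum is higher in every vestibular library, Mcoln3 overlaps between the tissues at 7.02% to 11.3%, which changes if Myo6 is left out of the sum, and Trpc1 lies at 2.01% or more in the cochlea and at 0.690% or less in the vestibule.

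In the rest of the TRP family genes were called in both directions. Of 18 such genes found in the counts, 11 passed the filter. Of these, Trpc5 and Trpc4, canonical relatives of Trpc1, reached 1 CPM only in the tissue where they were high and entered the test only through it, so they are given by their levels alone, at 4.12 ± 1.17 CPM in the cochlea against 0.695 ± 0.229 CPM in the vestibule for Trpc5 and 0.148 ± 0.0511 against 1.23 ± 0.0543 CPM for Trpc4. Of the other 9 genes, 2 were called toward the cochlea and 2 toward the vestibule, beside 11.6% and 15.8% of all tested genes. Toward the cochlea these were Pkd2l1, a relative of Pkd2 found in neurons that contact the cerebrospinal fluid (11.1 ± 2.36 against 3.26 ± 0.383 CPM, log2 fold change -1.88, SE 0.21, edgeR adjusted p = 2.56e-04), and Trpm5, the channel of sweet and bitter taste cells (35.1 ± 4.62 against 20.5 ± 0.865 CPM, -0.90). Toward the vestibule they were Trpm1 (2.65 ± 0.572 against 46.8 ± 4.18 CPM, 4.03, SE 0.20, edgeR adjusted p = 5.56e-06) and Trpm2, opened by ADP-ribose (1.44 ± 0.410 against 6.12 ± 1.36 CPM, 1.95). Trpm1 is named after melanoma cells, and the 5 melanocyte markers checked (Tyr, Dct, Tyrp1, Pmel and Mlana) were all higher in every vestibular library, at summed levels of 31.0 to 60.0 CPM in the cochlea and 272 to 336 CPM in the vestibule. Tyrp1 and Mlana reached 1 CPM only in the vestibule, and the other 3 were called toward it; their part in the difference was not tested. Trpm3, at 209 ± 82.4 CPM in the cochlea and 180 ± 54.9 CPM in the vestibule, overlapped between the tissues (log2 fold change -0.34, edgeR adjusted p = 0.407).

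Among 11 genes that work with mucolipins in lysosomes, 2 were called toward the vestibule and none toward the cochlea, a share near the 15.8% of all tested genes called toward the vestibule. Tfeb stood at 20.0 ± 1.80 CPM in the cochlea and 40.8 ± 2.39 CPM in the vestibule (SD, n = 3 each), with a log2 fold change of 0.91 (SE 0.12, edgeR adjusted p = 8.17e-04). Tpcn1, a second channel of endolysosomes, stood at 91.6 ± 24.9 and 150.2 ± 14.7 CPM (0.60, SE 0.18, edgeR adjusted p = 0.0373). That call was lost without any 1 of cochlea 1, cochlea 2, vestibule 1, vestibule 2 and vestibule 3, with adjusted p-values of 0.0518 to 0.133. The median log2 fold change of the 11 genes was 0.20, against 0.00 over all tested genes.

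Of 10 genes of store-operated calcium entry and its release channels, the setting in which Trpc1 is usually placed, 2 were called in each direction, against 27.4% of all tested genes called, and their median log2 fold change was 0.09. The scaffold gene Homer1 (25.5 ± 1.01 against 17.6 ± 1.13 CPM, log2 fold change -0.65, SE 0.13, edgeR adjusted p = 0.00616) and the pore gene Orai2 (44.1 ± 4.13 against 34.0 ± 2.99 CPM, -0.50, SE 0.13, edgeR adjusted p = 0.0198) were higher in the cochlea. The call for Orai2 was lost without TMM scaling (adjusted p = 0.0689) and without cochlea 2, vestibule 1, vestibule 2 or vestibule 3 (0.0632 to 0.0883), and that for Homer1 without vestibule 2 (0.0607). The store sensor gene Stim1 (41.9 ± 1.82 against 69.1 ± 5.30 CPM, 0.61, SE 0.13, edgeR adjusted p = 0.00912) and the release channel gene Itpr1 (41.1 ± 18.2 against 175 ± 71.2 CPM, 1.96) were higher in the vestibule.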

How the data were processed

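The authors aligned reads with TopHat2 2.1.0 to GRCm38, with SAMtools 0.1.18, HTSeq 0.5.4p5 and edgeR 3.4.2 also named in the submitters' processing notes, and deposited whole-number counts per Ensembl gene without normalization, plus a log2 RPKM matrix of 14722 genes past their filter. Libraries were made from 450 ng RNA each with a stranded mRNA kit. The 5 summary lines of each count file, 18.5% to 20.6% of the counts, name no gene and were left out.

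The test on counts was that of edgeR 4.0.16 under R 4.3.3 (quasi-likelihood, TMM, no replicate block) and the test was tried on simulated data. Likeness to Trpa1 used log2 CPM with a prior count of 0.5. Alternatives were DESeq2 1.42.0, limma-voom 3.58.1, other scalings and filters, the replicate block, and leaving out each library. Replicates differed by more than sampling noise (chi-square per degree of freedom 26.6 to 92.7 within a tissue). Coordinates are those of GENCODE vM21 on GRCm38, not the release counted on, and promoters are those of RefSeq for GRCm38.p6. Figures used Python 3.11.15 and matplotlib 3.10.9. Members, marker lists, partner lists and the naming rule (all members, every called gene of the partner lists, and the 5 nearest to Trpa1) were chosen with earlier results of these data known. Trpm3, Pkd1 and the macrophage, endothelial and melanocyte lists set beside single genes were picked after their values were seen. Trpc2 was not analysed here. The protein data of the study were not used here.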

Additional observations from a re-analysis of the deposited data

How the results depend on the processing

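Of 19 tested genes among the members, the rest of the family and the partner lists, counting Pkd1 and Trpm3 added after seeing the data and leaving out Trpc4 and Trpc5, 11 kept their side of the threshold under every alternative that tested them and none reversed, and cell type markers were not refitted one by one. Scaling by library size without TMM moved the median of all tested genes from 0.00 to 0.13 on the log2 scale and their calls to 1251 toward the cochlea and 2754 toward the vestibule, 68.8% vestibular against 57.6% with TMM (1711 and 2325), left 1 gene of store-operated entry called toward the cochlea in place of 2, and gave 3 in place of 2 toward the vestibule both there and among the lysosomal genes. With a replicate block, 1 member was called toward the vestibule in place of 3 (adjusted p of Mcoln3 0.145, of Pkd2 0.0723), 1 lysosomal gene in place of 2 (Tpcn1 0.0982), 1 store-operated gene toward the cochlea in place of 2 (Orai2 0.0922), and 1009 and 1609 of all genes. Whether same-numbered libraries were paired is not given in the sources used here. Their correlations of -0.474 to -0.175 in deviations from the tissue means cannot decide it, since they come from few libraries. Leaving out each library in turn gave 1 to 5 members toward the vestibule, 0 to 1 lysosomal genes toward the cochlea and 1 to 4 toward the vestibule, 0 to 2 store-operated genes toward the cochlea, 0 to 1 polycystin partners toward the vestibule, and 925 to 1863 and 1342 to 2694 of all genes toward the cochlea and the vestibule. The lowest counts over all genes came without vestibule 2, and the cochlear count was also 1035 without cochlea 2 and the vestibular one 1522 without vestibule 1. The log2 ratio of Trpa1, for which no test was run, lay between -6.90 and -6.39 when a library was left out. The shares of the hair cell marker sum were also computed without each marker, a choice made after seeing the data: without Myo6, 7 members in place of 2 were higher in all cochlear libraries, and without Otof, 3 in place of 1 in all vestibular ones. The cause of these shifts was not tested. Both cochlear counts of members include Trpa1, which was chosen for being high there. Both vestibular counts include Mcoln2, which was too scarce for the test. The share of all genes on the scale of the marker sum was not computed, so no result about the members is read from these counts. Depth limits Mcoln2 in the cochlea and Trpa1 in the vestibule, each with 7 pooled counts.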
